A study of Homo sapiens with 6 samples.

Results

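C/D-box small nucleolar RNAs (snoRNAs) were examined in AN3CA cells, a human endometrial cancer line that expresses the transcription factor *PAX2*. They were taken as every gene whose symbol begins with SNORD and a digit, which gave 219 of the 17471 genes listed. RNA-seq was available for 3 libraries with an empty vector (shEV) and 3 in which a hairpin targeted *PAX2* (shPAX2). Both groups were transduced by lentivirus, were of the same wild-type background and were kept under puromycin, so vector and selection are shared. The study's text elsewhere calls the AN3CA control scrambled. Nothing states that libraries of a group came from separate cultures, and p-values then measure only the spread between these libraries, which may be technical. Each group is a transduced population of 1 cell line, so an effect of the hairpin other than *PAX2* loss cannot be told apart from *PAX2* loss.

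C/D-box snoRNAs are short nuclear RNAs that carry a C box near the 5′ end and a D box near the 3′ end. The boxes bind the proteins NOP56, NOP58, NHP2L1 (SNU13) and the methyltransferase fibrillarin (FBL). The stretch before the D box pairs with ribosomal RNA or a spliceosomal RNA and places a 2′-O-methyl group on it. Most human C/D-box snoRNAs are cut from introns of host genes, many of which encode ribosomal proteins or noncoding RNAs such as *GAS5* and *SNHG1*. SNORD113 and SNORD114 on chromosome 14 and SNORD115 and SNORD116 on chromosome 15 are tandem arrays in imprinted regions with no rRNA target known for most copies, and they are described apart. U3 (SNORD3), U8 (SNORD118), U13 (SNORD13) and U14 (SNORD14) were not analysed here.

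Levels are in TPM, in which reads are divided by gene length and scaled for depth. How fully these libraries captured RNAs as short as snoRNAs was not measured. TPM of snoRNAs of unlike length, or of a snoRNA and its host, may therefore not be comparable as amounts. The reads behind them could be recovered: shEV held 10731032 to 18222061 and shPAX2 19422849 to 29406068 in a library, so shPAX2 was the deeper group throughout. In a gene of 80 bases 1 read was worth 0.817 to 2.33 TPM. *PAX2* measured 4.03, 3.66 and 2.74 TPM in shEV and 0.916, 0.723 and 1.17 TPM in shPAX2, a log2 fold change of −1.47 (SE 0.18, adjusted p = 0.000294), with a two-sided exact permutation p = 0.1, the smallest that 3 against 3 libraries allow. The label calls the cells epithelial. Among 8 epithelial markers only *KRT18* was above the low-value filter, and the other 7, *EPCAM* and *CDH1* included, had at most 6 reads in any library.

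Sequences of the snoRNAs on which the results turn are given first, from GRCh37 at the GENCODE positions, 5′ to 3′ in DNA letters, with the C-box core TGATG and the D box CTGA in capitals. SNORD58A (chr18:47017653-47017717), SNORD58B (chr18:47018034-47018099) and SNORD58C (chr18:47015615-47015678) lie on the minus strand within *RPL17*. SNORD58B overlaps an exon of an annotated transcript, so exonic reads of the host can count there. They are shown because they share a host and much of their sequence, and SNORD58B and SNORD58C were called while SNORD58A was not. Identity was 79.7% between SNORD58A and SNORD58B and 79.1% between SNORD58A and SNORD58C.
SNORD58A: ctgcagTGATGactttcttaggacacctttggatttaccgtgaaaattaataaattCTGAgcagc
SNORD58B: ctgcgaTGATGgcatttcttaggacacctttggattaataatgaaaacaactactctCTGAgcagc
SNORD58C: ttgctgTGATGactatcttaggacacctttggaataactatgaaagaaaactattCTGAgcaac

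SNORD17 (chr20:17943353-17943589, minus strand, intron of *SNX5*), with 237 bases, had the highest mean TPM of the set. SNORD86 (chr20:2636743-2636828, plus strand, intron of *NOP56*) was higher in shPAX2 while its neighbours in the host were not called. SNORD52 (chr6:31804853-31804919, plus strand, exonic in an annotated transcript of *C6orf48*), SNORD101 (chr6:133136446-133136518) and SNORD100 (chr6:133137941-133138016), the last pair on the plus strand in introns of *RPS12*, belong to the chromosome 6 group.
SNORD17: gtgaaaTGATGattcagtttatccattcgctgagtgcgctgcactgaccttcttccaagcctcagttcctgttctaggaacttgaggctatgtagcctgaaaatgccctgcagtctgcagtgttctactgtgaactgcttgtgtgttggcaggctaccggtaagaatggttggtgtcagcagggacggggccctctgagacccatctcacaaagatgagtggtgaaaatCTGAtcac
SNORD86: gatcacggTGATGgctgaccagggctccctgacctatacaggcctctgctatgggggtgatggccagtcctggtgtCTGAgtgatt
SNORD52: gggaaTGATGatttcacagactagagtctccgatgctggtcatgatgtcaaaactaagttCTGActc
SNORD101: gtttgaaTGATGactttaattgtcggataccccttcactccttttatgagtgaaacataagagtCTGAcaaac
SNORD100: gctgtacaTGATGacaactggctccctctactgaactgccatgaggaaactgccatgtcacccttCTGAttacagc

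The box letters were looked for on the transcribed strand of all 178 snoRNAs with a known GRCh37 position, with the C-box core searched in the first 20 bases and the D box in the last 20. The C-box core was found in 164 of them (92.1%) and the D box in 172 (96.6%), with both in 162 (91.0%). Windows of the same length placed 200 bases upstream held the C-box letters in 4.49% and the D-box letters in 8.99%, and 85 H/ACA-box snoRNAs, the other large class, held them in 1.18% and 11.8%. Most of the 178 therefore carried the boxes that define their class, which is a check of the positions used and not a result of these libraries. All 24 SNORD116 and all 19 SNORD115 copies with a position held both boxes.

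The summed level of the C/D-box snoRNAs was nearly the same in both groups. Their summed TPM, with genes that share all reads counted once, was 11167, 10828 and 11157 in shEV and 10623, 11567 and 10693 in shPAX2. The group means were 11051 ± 193 and 10961 ± 526 (SD, n = 3 each), a ratio of 0.992, and the shPAX2 libraries lay on both sides of the shEV range. The sum was 1.06% to 1.16% of all TPM. As a share of recovered reads, with no length correction, the ratio of shPAX2 to shEV was 0.941, and there the libraries did not overlap. SNORD17, which was lower in every shPAX2 library, supplied 20.5% of these reads. The ratio without SNORD17 was not computed, so 0.941 is not a fall shown for the class at large.

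The level was spread unevenly over members. The 10 most read members supplied 43.8% of the reads, and SNORD17 alone 20.5%. Outside the arrays the highest mean TPM over the 6 libraries were SNORD17 at 936, SNORD49B at 637, SNORD76 at 397, SNORD58B at 327, SNORD26 at 321, SNORD44 at 301 and SNORD29 at 299, followed by SNORD49A, SNORD10 at 289 and SNORD2 at 261. Most of these guide methylation of the large-subunit rRNA, SNORD44 that of the small-subunit rRNA. At the other end 53 of the 219 had no more than 3 reads in any library, 49 of them in the arrays. Only 92 had a mean of at least 20 reads.

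Of the 219, 175 passed the filter of 0.5 TPM in at least 3 libraries and were tested among 13163 genes. At an adjusted p under 0.05, 14 were higher and 12 lower in shPAX2 (14.9% together), where 12.2% of all genes tested were higher and 30.5% lower. Requiring also a log2 fold change of 1 or more in either direction, 3 were higher (SNORD86, SNORD50B and SNORD52) and 2 lower (SNORD89 and SNORD116-25), against 1.43% and 3.11% of all genes. The median log2 fold change was 0.09 (quartiles −0.23 and 0.40) against −0.10 over all genes. Scaling by median-of-ratios moved the median of all genes to 0.01 and that of the snoRNAs to 0.21, so the distance between them was 0.20 under either scaling. snoRNA rows were measured less precisely, with a median SE of 0.291 against 0.083 for all genes, and the part of this in the lower share of calls was not tested.

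Reads decided which calls could be followed. Among the 92 with a mean of at least 20 reads, 10 (10.9%) were higher and 7 (7.61%) lower at an adjusted p under 0.05, against 12.7% and 31.6% of all genes with that many reads. Under median-of-ratios scaling the split was 16 higher and 5 lower. The fold threshold was passed by SNORD86, SNORD50B and SNORD52 alone, all higher (3.26%), where 1.27% of such genes were higher and 2.83% lower past it. SNORD15B, at −0.96, came closest on the lower side. The 17 called did not overlap between the groups, which largely follows from the call. Of the 92, 20 did not overlap, against 6961 of the 12241 genes tested with that many reads. When the test was run with weights from the recovered reads (voom), 12 of the 92 were called, 9 higher and 3 lower, and 10 of those were among the 17. SNORD102 (adjusted p = 0.0992), SNORD42B (0.108), SNORD4B (0.279), SNORD15A (0.22), SNORD101 (0.1), SNORD80 (0.283) and SNORD96A (0.217) were then no longer past the threshold by voom with Benjamini-Hochberg adjustment.

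**Figure D1:**
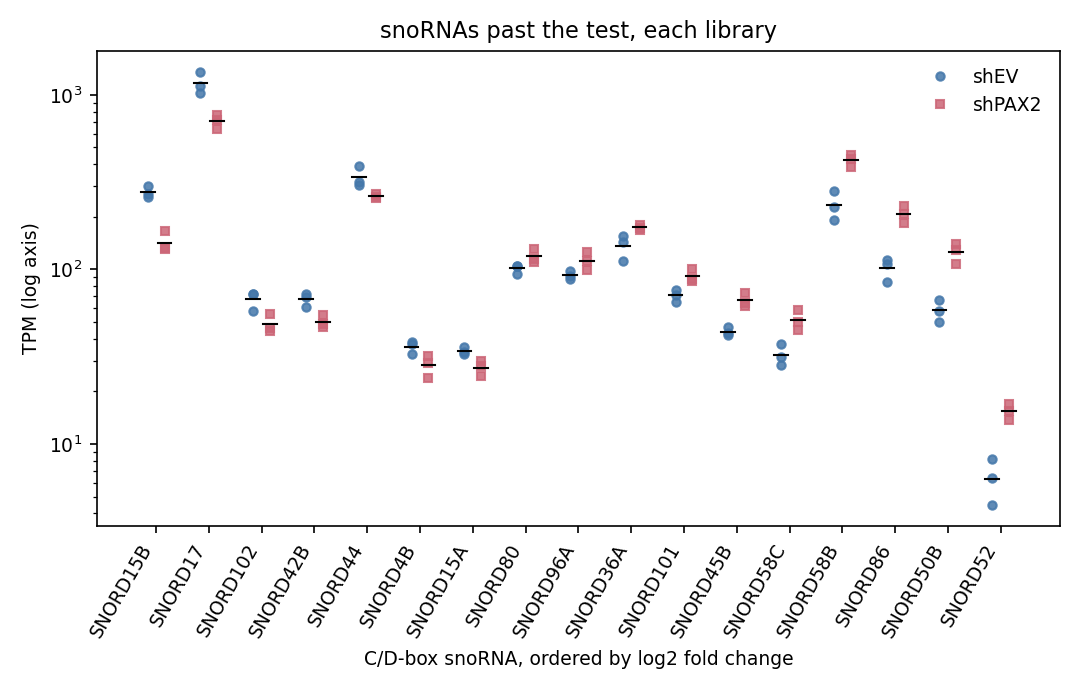
TPM (log axis) of the 17 C/D-box snoRNAs with a mean of at least 20 reads and an adjusted p under 0.05, 3 shEV libraries (circles) beside 3 shPAX2 libraries (squares), bars at group means, ordered by log2 fold change from SNORD15B (−0.96) to SNORD52 (1.25). Levels run from SNORD52, at 4.50 TPM in its lowest library, to SNORD17, at 1345 TPM in its highest, and in each pair the circles and squares do not overlap.

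SNORD17, a long member that guides methylation of the large-subunit rRNA, was the largest loss in absolute level. It measured 1026, 1124 and 1345 TPM in shEV and 763, 722 and 633 TPM in shPAX2. The group means were 1165 ± 163 and 706 ± 66.6 TPM (SD, n = 3 per group), and the fitted log2 fold change was −0.72 (SE 0.11, adjusted p = 0.00128). Every shPAX2 library lay below every shEV library. Its host *SNX5*, a sorting nexin of endosomes, measured 74.2 ± 3.26 and 74.7 ± 3.63 TPM (log2 fold change 0.01, adjusted p = 0.903). Within each library SNORD17 stood at 13.9, 15.8 and 17.4 times its host in shEV and at 10.5, 9.15 and 8.70 times in shPAX2 (exact two-sided permutation p = 0.1). Of 24 such ratios computed within libraries, 18 did not overlap between the groups, which mostly follows from their choice, as nearly all have a called snoRNA as numerator. For any of them 0.1 is the smallest p that 3 against 3 allow, 0.133 after Benjamini-Hochberg adjustment over the 24, so no ratio could pass the threshold.

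SNORD15B and SNORD15A, the U15 snoRNAs of *RPS3*, guide the large-subunit rRNA. SNORD15B measured 259, 269.7 and 302 TPM in shEV against 165, 130.1 and 132 TPM in shPAX2, and fell by 0.96 on the log2 scale (SE 0.10, adjusted p = 0.000162). SNORD15A, at 32.7, 33.6 and 35.9 TPM against 27.8, 24.6 and 29.8 TPM, fell by 0.31 (SE 0.08, adjusted p = 0.0122). Neither overlapped between the groups. The call of SNORD15A ended under median-of-ratios scaling (−0.20, adjusted p = 0.0752) as it did under voom. The ratio of SNORD15B to SNORD15A was 7.91, 8.02 and 8.41 in shEV and 5.94, 5.30 and 4.43 in shPAX2 (exact two-sided permutation p = 0.1). *RPS3*, a protein of the small subunit, did not pass the test, with 845 ± 26.7 and 834 ± 16.5 TPM (log2 fold change −0.02, SE 0.05, adjusted p = 0.815). The counting interval of SNORD15A's ratio between groups, from pooled reads at 95% and for counting error only, was 0.619 to 1.01, while that of SNORD15B was 0.470 to 0.568.

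The other losses were smaller. SNORD44, one of 10 snoRNAs in *GAS5*, measured 318, 306 and 392 TPM in shEV and 258, 270.0 and 260.4 TPM in shPAX2 and fell by 0.36 (SE 0.09, adjusted p = 0.0126). SNORD102, in an intron of *RPL21*, measured 72.4, 58.2 and 72.3 TPM against 44.5, 46.4 and 55.5 TPM and fell by 0.47 (SE 0.11, adjusted p = 0.0111). SNORD42B and SNORD4B both lie in *RPL23A* and guide the small-subunit rRNA. SNORD42B measured 61.2, 72.6 and 69.4 TPM against 46.8, 48.7 and 55.1 TPM, a fall of 0.43 (SE 0.08, adjusted p = 0.00368). SNORD4B, with 13 to 32 reads a library, measured 32.7, 38.2 and 37.4 TPM against 23.8, 32.1 and 29.1 TPM and fell by 0.35 (SE 0.11, adjusted p = 0.0321). Neither host was past the test (log2 fold change −0.02 for *RPL21* and 0.10 for *RPL23A*). The call of SNORD4B ended in 9 of 19 alternatives, among them median-of-ratios scaling and the fits without shEV replicate 2 or 3 or shPAX2 replicate 1 or 3, where its log2 fold change lay between −0.45 and −0.23 over all 19.

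SNORD86 showed the clearest gain outside chromosome 6. It measured 84.5, 107.9 and 113.3 TPM in shEV and 185, 230.3 and 207 TPM in shPAX2, from 102 ± 15.3 to 207 ± 22.9 TPM (SD, n = 3 each). The log2 fold change was 1.03 (SE 0.13, adjusted p = 0.000679) and the libraries did not overlap. Its host *NOP56* encodes one of the core proteins of the particle that C/D-box snoRNAs form. *NOP56* went from 187 ± 9.88 to 221.5 ± 16.9 TPM, a log2 fold change of 0.24 (SE 0.07, adjusted p = 0.0243). The ratio of SNORD86 to *NOP56* was 0.429, 0.579 and 0.640 in shEV and 0.913, 0.985 and 0.908 in shPAX2 (exact two-sided permutation p = 0.1). The other members in *NOP56* did not pass the test, with SNORD57 at −0.16 (adjusted p = 0.618), SNORD110 at 0.25 (0.157) and SNORD56, which had under 20 reads, at −0.72 (0.26).

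Within *RPL17*, which encodes a large-subunit protein, SNORD58B and SNORD58C were higher in shPAX2. SNORD58B measured 192, 283 and 226.5 TPM in shEV and 450.4, 428 and 383.5 TPM in shPAX2 (log2 fold change 0.86, SE 0.14, adjusted p = 0.00305). SNORD58C measured 37.3, 31.4 and 28.3 TPM against 45.01, 58.5 and 50.1 TPM (0.66, SE 0.12, adjusted p = 0.00442). SNORD58A measured 28.7, 52.2 and 73.3 TPM against 43.2, 47.9 and 61.5 TPM and overlapped widely (0.07, SE 0.39, adjusted p = 0.902). The ratio of SNORD58B to SNORD58A ran from 3.09 to 6.70 in shEV and from 6.24 to 10.4 in shPAX2 (exact two-sided permutation p = 0.2), so a difference between these copies was not shown. *RPL17* itself measured 727 ± 79.4 and 813 ± 22.6 TPM (adjusted p = 0.123).

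SNORD45B, in *RABGGTB*, measured 42.0, 43.0 and 46.8 TPM in shEV and 64.4, 73.1 and 62.1 TPM in shPAX2 (log2 fold change 0.59, SE 0.08, adjusted p = 0.000407). The other copies in that gene, SNORD45A at 0.25 and SNORD45C at 0.11, did not pass the test, but the ratio of SNORD45B to SNORD45A overlapped between the groups (exact two-sided permutation p = 0.5), so a difference between the copies was not shown, and the host, a subunit of Rab geranylgeranyl transferase, was at 0.06 (adjusted p = 0.451). SNORD36A, in *RPL7A*, measured 155, 111.6 and 143 TPM against 180.6, 173 and 168 TPM (0.36, SE 0.11, adjusted p = 0.0349), while *RPL7A* fell by 0.20 (SE 0.05, adjusted p = 0.0166), a call that median-of-ratios scaling ended at −0.09. The call of SNORD36A ended in 7 of 19 alternatives, including the fits without shEV replicate 2 or 3 or any one shPAX2 replicate. SNORD80 in *GAS5* (0.22, adjusted p = 0.0474) and SNORD96A in *GNB2L1* (0.27, adjusted p = 0.0326) completed the 10 that rose. The call of SNORD80 ended in 8 of 19 alternatives, including the fits without any one shEV replicate and without shPAX2 replicate 2 or 3. SNORD96A is named after its values were seen, and of the alternatives its value was read only under voom and the replicate block.

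All 8 members on chromosome 6 had positive log2 fold changes, with a median of 0.54, and 3 of them passed the test, all higher. Chromosome 6 stood apart as a whole: 396 of its 634 tested genes were higher (62.5%) and 46 lower (7.26%), with a median of 0.39. Members on other chromosomes with at least 20 reads had a median of 0.04, with 7 higher and 7 lower of 85. The hosts on chromosome 6, *SNHG5*, *RPS12*, *C6orf48* and *DDX39B*, all rose, with log2 fold changes of 0.80, 0.63, 0.58 and 0.48. The part of the chromosome-wide rise in the members' values was not tested.

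SNORD50B, in the noncoding host *SNHG5*, measured 49.8, 66.9 and 57.7 TPM in shEV and 139, 129.6 and 107 TPM in shPAX2 (log2 fold change 1.10, SE 0.13, adjusted p = 0.000675). SNORD50A of the same host measured 69.5, 33.2 and 29.5 TPM against 39.2, 57.4 and 68.3 TPM and overlapped (0.39, SE 0.42, adjusted p = 0.516), as did the ratio of SNORD50B to SNORD50A (exact two-sided permutation p = 0.4). *SNHG5* rose from 466 ± 18.6 to 814 ± 31.9 TPM (SE 0.06, adjusted p = 1.9e-05). The ratio of SNORD50B to *SNHG5* ran from 0.112 to 0.143 in shEV and from 0.127 to 0.170 in shPAX2, with overlap (exact two-sided permutation p = 0.2).

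SNORD52, in the noncoding *C6orf48* (SNHG32) of the MHC region, had the highest positive fold change among the called members. Its reads numbered 14, 18 and 13 for shEV and 83, 67 and 43 for shPAX2, which gave 8.15, 6.37 and 4.50 TPM against 16.95, 15.53 and 13.8 TPM. The log2 fold change was 1.25 (SE 0.20, adjusted p = 0.00274), and the counting interval of the ratio was 1.86 to 3.66. SNORD48, the other snoRNA of this host, measured 11.2, 12.9 and 5.61 TPM against 14.1, 18.1 and 14.3 TPM and did not pass the test (0.69, SE 0.33, adjusted p = 0.164), although its libraries did not overlap. *C6orf48* rose from 19.8 ± 1.23 to 29.9 ± 1.99 TPM (adjusted p = 0.000381). The length used for SNORD52 was 5 times that of its RefSeq entry, for SNORD48 4.94 times, for SNORD84 7 times and for SNORD117 8 times. Their TPM is therefore lower by that factor than with 1 copy. On the log2(TPM + 0.5) scale this also shrinks their fold changes, that of SNORD117 being 0.23 here and 0.33 with a pseudocount of 0.1 TPM.

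In *RPS12*, a small-subunit protein gene, SNORD101 measured 76.5, 65.1 and 71.3 TPM in shEV and 85.9, 100.6 and 88.4 TPM in shPAX2 (log2 fold change 0.37, SE 0.08, adjusted p = 0.00683). SNORD100, a guide for the small-subunit rRNA, measured 14.7, 34.2 and 37.9 TPM against 55.9, 80.04 and 87.7 TPM. Its libraries did not overlap and its log2 fold change of 1.43 was larger, but with an SE of 0.44 it missed the threshold (adjusted p = 0.0587). This turned on the processing, since SNORD100 passed under voom (adjusted p = 0.00516), median-of-ratios scaling (0.0448), no filter (0.0472), no trend (0.0253), a pseudocount of 5 TPM (0.049) and without shEV replicate 1 (1.01, adjusted p = 0.0207), and reached 0.174 at most, without shPAX2 replicate 3. The lowest SNORD100 value rested on 6 reads. The ratio of SNORD100 to SNORD101 was 0.192, 0.526 and 0.531 in shEV and 0.650, 0.796 and 0.991 in shPAX2 (exact two-sided permutation p = 0.1). The ratio of SNORD101 to *RPS12* went from 0.0277 ± 0.00185 to 0.0231 ± 0.00221 without overlap (exact two-sided permutation p = 0.1). In *DDX39B*, an RNA helicase gene, SNORD84 measured 6.82, 5.80 and 9.74 TPM against 9.21, 11.01 and 7.13 TPM and SNORD117 0.613, 0.744 and 1.28 TPM against 0.967, 1.10 and 1.18 TPM, both with overlap.

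**Figure D2:**
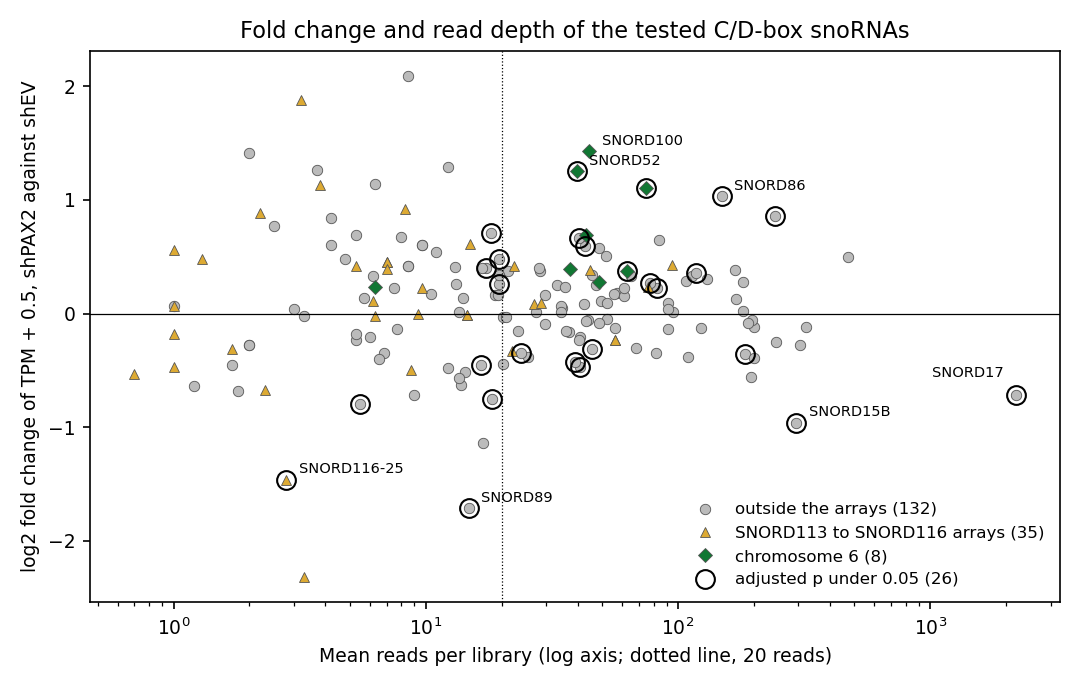
log2 fold change of TPM + 0.5 (shPAX2 against shEV) against mean reads per library (log axis) for the 175 tested C/D-box snoRNAs, with arrays as triangles, chromosome 6 as diamonds and rings around the 26 with an adjusted p under 0.05. The scatter widens to the left of the dotted line at 20 reads, and the 8 chromosome 6 members all lie above 0.

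Host genes were examined because an intronic snoRNA and its host start from 1 transcript. All 68 listed hosts were tested, of which 15 were higher and 11 lower at an adjusted p under 0.05 (22.1% and 16.2%, against 12.2% and 30.5% of all genes), with a median log2 fold change of −0.00 and quartiles of −0.12 and 0.16. *MEG8*, the host with the lowest level, alone passed the fold threshold. Over 81 pairs of a snoRNA with at least 20 reads and its host, the rank correlation of their log2 fold changes was 0.37, given as a description since snoRNAs of 1 host share its value and all share the 6 libraries. Signs were the same in 51 of the 81. The rank correlation of their mean TPM was 0.11, and only 7 of the 81 snoRNAs had a mean TPM above that of their host. SNORD17 led these, and SNORD102, SNORD108, SNORD26, SNORD29, SNORD49B and SNORD2 were the others.

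Hosts with 3 or more snoRNAs of at least 20 reads showed how far members of 1 precursor spread. In *GAS5*, a noncoding RNA whose introns hold 10 of the listed snoRNAs, the members ran from −0.36 (SNORD44) to 0.28 (SNORD47) with the host at −0.04, and 1 passed the test in each direction. The ratio of SNORD44 to SNORD47 was 1.44, 1.81 and 1.84 in shEV and 1.06, 1.0 and 1.20 in shPAX2 (exact two-sided permutation p = 0.1). As these are the lowest and the highest member of the host, the lack of overlap largely follows from their choice. In *SNHG1*, with 8, they ran from −0.25 (SNORD26) to 0.65 (SNORD28) with the host at 0.01, and none passed limma's test, 1 of them having an unadjusted p under 0.05. *RPL13A* fell by 0.39 (adjusted p = 0.000918) while its 4 snoRNAs ran from −0.38 (SNORD35A) to 0.38 (SNORD32A) without a call. In *RPL23A* the 3 members with at least 20 reads were all negative (−0.43 to −0.14, with 2 called), and in *ZFAS1* the 3 were all positive (0.33 to 0.51, no call), with hosts at 0.10 and −0.01.

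Other multi-snoRNA hosts held few calls. Members of *RPL7A* ran from −0.23 to 0.40 with 1 call, those of *RABGGTB* from 0.11 to 0.59 with 1, those of *NOP56* from −0.16 to 1.03 with 1 and those of *RPL17* from 0.07 to 0.86 with 2. Members of *RPL4* (−0.03 to 0.22), *RPL3* (−0.21 to −0.07) and *C17orf76-AS1* (−0.39 to 0.30) had no member past the test. By class of host, 5 of 33 members in ribosomal protein genes were higher and 5 lower, with a median of −0.05. In noncoding hosts, 3 of 32 were higher and 1 lower, with a median of 0.11, and in the other hosts 2 of 16 were higher and 1 lower. The shares higher were 15.2%, 9.38% and 12.5%, where all genes with that many reads gave 12.7%, and the shares lower 15.2%, 3.12% and 6.25%, where all such genes gave 31.6%.

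**Figure D3:**
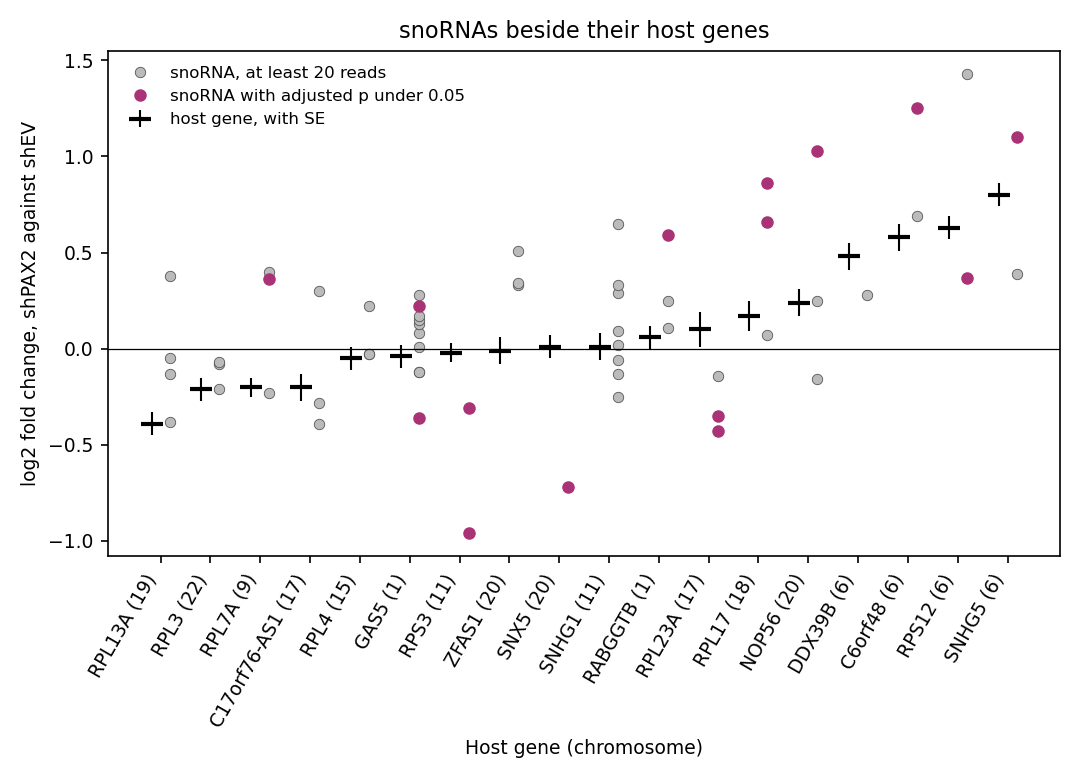
log2 fold change (shPAX2 against shEV) of host genes (bars with SE) and of their C/D-box snoRNAs with at least 20 reads (circles, filled dark where the adjusted p is under 0.05), hosts ordered by their own value with the chromosome in brackets. Hosts span −0.39 (*RPL13A*) to 0.80 (*SNHG5*), members of 1 host spread by up to 1.19 as in *NOP56*, and the 4 chromosome 6 hosts stand at the right.

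Most of the abundant snoRNAs did not pass the test. SNORD49B, in *C17orf76-AS1* (SNHG29), measured 621, 780.3 and 687.5 TPM in shEV and 457, 624 and 649 TPM in shPAX2 (log2 fold change −0.28, adjusted p = 0.179). SNORD76, in *GAS5*, measured 446, 359 and 432 TPM against 298.5, 398 and 449 TPM (−0.12, adjusted p = 0.586), and SNORD26, in *SNHG1*, 363, 329 and 349.9 TPM against 332, 314.5 and 236 TPM (−0.25, adjusted p = 0.137). The groups overlapped in SNORD49B, SNORD76 and SNORD26. SNORD29 (−0.06), SNORD49A (−0.39, SE 0.20) and SNORD2 (−0.08) were likewise not called.

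Some abundant snoRNAs differed widely among libraries of 1 group. SNORD10, in *EIF4A1*, measured 299.5, 203 and 204 TPM in shEV and 450.7, 361 and 216 TPM in shPAX2, on 238 to 1021 reads, and was not called (0.50, SE 0.34, adjusted p = 0.302). SNORD97, in *EIF4G2*, measured 165, 151 and 156 TPM in shEV and 159, 107 and 70.7 TPM in shPAX2, on 98 to 346 reads (−0.56, SE 0.31, adjusted p = 0.219). SNORD97 was chosen after its values were seen. In SNORD10 both groups spread, with coefficients of variation of 23.4% in shEV and 34.6% in shPAX2, and in SNORD97 mainly shPAX2, with 4.49% and 39.6%. The groups overlapped in both. Across the 92 members the coefficient of variation within a group had a median of 17.5% in shEV and 14.9% in shPAX2, where counting alone at their mean reads gives a median of 13.8%.

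Below 20 reads, 9 of 83 tested members passed the test. The shares were 4.82% higher and 6.02% lower, against 12.2% and 30.5% of all genes tested at any depth. In 5 of the 9 the counting interval of the ratio included 1. It also did so in 4 of the 17 called with at least 20 reads, namely SNORD15A, SNORD4B, SNORD80 and SNORD96A. SNORD89, in *RNF149*, had the largest fold change, with reads of 8, 31 and 23 for shEV and 12, 6 and 9 for shPAX2. Its level was 13.1, 30.8 and 22.3 TPM against 6.88, 3.90 and 8.09 TPM (log2 fold change −1.71, SE 0.42, adjusted p = 0.0317), with a counting interval of 0.161 to 0.419 and its host at 0.15. The other call past the fold threshold, SNORD116-25, rested on 17 reads in all, 3, 4 and 4 in shEV and 3, 2 and 1 in shPAX2. Its log2 fold change of −1.46 (SE 0.18, adjusted p = 0.00036) had a counting interval of the ratio from 0.0999 to 0.970. limma on TPM does not weight a value by its reads. The remaining calls at this depth were SNORD72 (0.71), SNORD55 (0.48), SNORD21 (0.40) and SNORD37 (0.26), which were higher, and SNORD9 (−0.80), SNORD69 (−0.75) and SNORD20 (−0.45), which were lower, all named after their values were seen.

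The arrays differed in whether they could be read at all. SNORD116, the array deleted in Prader-Willi syndrome, had 28 of its 29 copies tested and summed to 417, 414 and 389.8 TPM in shEV and 433, 506 and 458 TPM in shPAX2. The group means were 407 ± 14.9 and 466 ± 37.1 TPM, with every shPAX2 library above every shEV library by a ratio of means of 1.14. No single copy other than SNORD116-25 passed the test. The most read copies were SNORD116-21, with 89.2, 74.6 and 81.3 TPM against 84.8, 110.5 and 140.6 TPM (0.43, SE 0.19, adjusted p = 0.127), SNORD116-20, with 75.3, 60.2 and 71.9 TPM against 82.0, 104 and 61.1 TPM (0.23, adjusted p = 0.441), and SNORD116-19, with 32.7, 30.7 and 32.4 TPM against 17.03, 32.4 and 36.5 TPM (−0.23, adjusted p = 0.603). All 3 overlapped between the groups.

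Copies of the SNORD116 array were far from equal. SNORD116-20 and SNORD116-21 stood at 69.1 to 112 TPM as group means, while SNORD116-10, SNORD116-12, SNORD116-28 and SNORD116-29 stayed at no more than 3 reads in any library. Among the 24 copies with a position the median pairwise identity was 84.4% (lowest 62.9%), with 3 identical pairs. SNORD116-17 and SNORD116-19 carried the same reads in every library, at a length of 2 copies, as did SNORD116-3 and SNORD116-9, and SNORD116-5 and SNORD116-7. Over all C/D-box snoRNAs 31 were in 14 such sets, and the levels of such copies cannot be told apart.

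**Figure D4:**
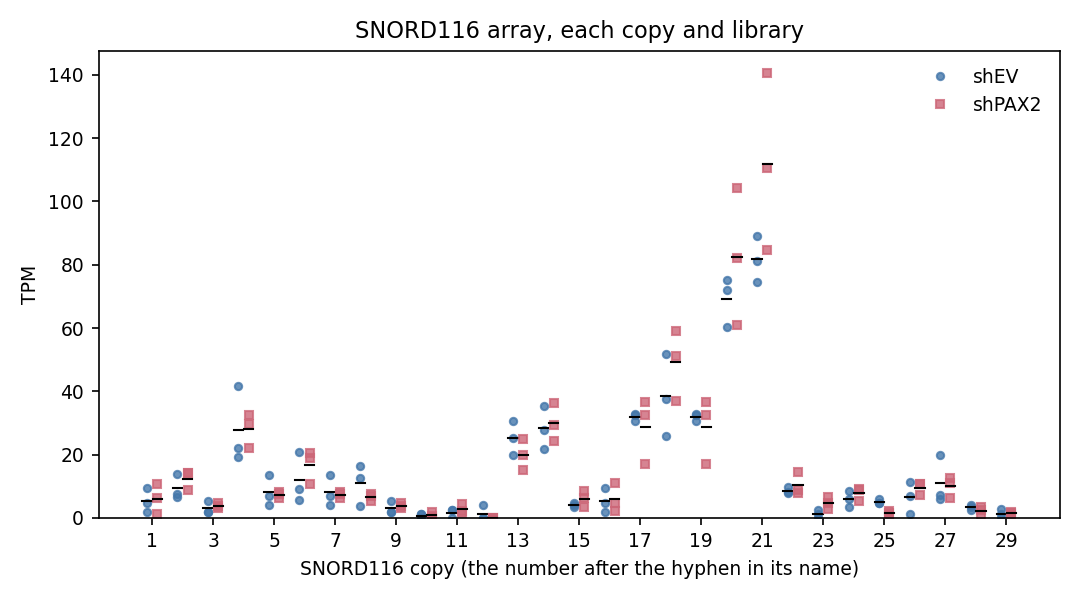
TPM of each of the 29 SNORD116 copies in 3 shEV libraries (circles) and 3 shPAX2 libraries (squares), bars at group means, by the copy number in the name. Copies 20 and 21 stand highest, at group means of 69.1 to 112 TPM, and circles and squares overlap in most copies.

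SNORD115, SNORD113 and SNORD114 were at the edge of detection. SNORD115, whose copies are known from brain, had 21 rows with 3 or fewer reads each in every library, and 1 was tested. The copies with most reads, SNORD115-10, SNORD115-5 and SNORD115-9, had 2, 3 and 1, 2, 2 and 1 and again 2, 2 and 1 reads in shEV and were listed at 0 in shPAX2, none above the floor of 3 reads in any library, so no fold is given. Since 1 read is worth less TPM in the deeper shPAX2 libraries, a level near the floor cannot be compared. SNORD113 summed to 0, 1 and 4 reads in shEV and to 3, 2 and 6 reads in shPAX2.

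SNORD114 had 22 copies listed, 5 of them tested and none with more than 6 reads in a library. SNORD114-3 reads numbered 5, 4 and 5 for shEV and 3, 3 and 0 for shPAX2 (log2 fold change −2.32, adjusted p = 0.105), and SNORD114-10 had 5, 0 and 2 against 6, 6 and 4. Both arrays of chromosome 14 lie in the imprinted noncoding *MEG8*, the listed host of 27 of their copies. *MEG8* measured 2.24, 1.36 and 2.67 TPM in shEV and 0.394, 0.447 and 1.03 TPM in shPAX2, a log2 fold change of −1.22 (SE 0.26, adjusted p = 0.00628) without overlap. Its level was the lowest among the 68 listed hosts, of which 67 had a mean of at least 20 reads. Sequences within the arrays were alike to differing degrees, with a median pairwise identity of 70.5% in SNORD113, 78.2% in SNORD114 and 93.9% in SNORD115, where 4 pairs were identical.

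The proteins that bind C/D-box snoRNAs were examined next. *NOP58* rose from 140 ± 2.41 to 181 ± 17.7 TPM (log2 fold change 0.37, SE 0.08, adjusted p = 0.00451) and *NOP56* as given above. *FBL*, the methyltransferase (0.10, adjusted p = 0.205), and *NHP2L1*, which binds the C and D boxes first (0.21, adjusted p = 0.0721), did not pass the test. Called in either direction were 2 of these 4 (50.0%) and 4 of 9 assembly factors (44.4%), against 42.8% of all genes tested. Among the 9 assembly factors 2 rose, the ATPases *RUVBL1* (0.19, adjusted p = 0.0427) and *RUVBL2* (0.26, adjusted p = 0.0071). The other called pair fell: *NUFIP1*, a scaffold for the assembly of the particle, from 11.1 ± 0.423 to 4.87 ± 0.338 TPM (−1.12, SE 0.09, adjusted p = 2.5e-05), and its partner in that complex *ZNHIT3* from 81.8 ± 4.70 to 53.7 ± 4.35 TPM (−0.60, SE 0.07, adjusted p = 0.000322).

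Of 9 genes of snoRNA trafficking and processing, 4 rose by 0.17 to 0.32, namely *NOLC1*, *COIL* (coilin of Cajal bodies), *PHAX* and the exportin *XPO1*, and none fell by limma's test (5 of the 9 had an unadjusted p under 0.05 in either direction), *XRN2* coming nearest at −0.12 (adjusted p = 0.0906). Of 29 proteins of the U3-containing small-subunit processome, which acts on precursor rRNA, 4 rose, *WDR46* on chromosome 6 (0.55, adjusted p = 0.000336), *BMS1* (0.27), *PWP2* (0.26) and *TBL3* (0.25). *NOP14* fell from 72.2 ± 1.35 to 45.4 ± 1.20 TPM (−0.66, SE 0.05, adjusted p = 2.9e-05). Of the trafficking and processing genes 44.4% were called in either direction, against 42.8% of all genes tested. The processome shares were 13.8% higher and 3.45% lower, against 12.2% and 30.5%. The processome median was 0.09, with 26 of 29 positive. Among all genes tested the median was −0.10, with 4809 of 13163 positive. Median-of-ratios scaling moved the median of all genes to 0.01, so such sign counts depend on the scaling. Over the 51 genes of these lists 15 passed the test, a smaller share than the 42.8% of all genes tested that did in either direction, and 30 passed under median-of-ratios scaling.

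The other classes of small nuclear guide RNAs were set beside these values. Of 97 tested H/ACA-box snoRNAs, which guide pseudouridylation, 10 were higher (10.3%) and 8 lower (8.25%). All genes tested gave 12.2% and 30.5%. The H/ACA-box median log2 fold change was 0.07, with a summed TPM of 7747 ± 274 in shEV and 8101 ± 802 in shPAX2. Of 24 small Cajal body RNAs, which guide changes on spliceosomal RNAs, 9 were lower and none higher by limma's test. The share lower was 37.5%, against 30.5% of all genes. At an unadjusted p under 0.05 there were 11 in either direction, and the median was −0.40. The difference between the classes was not tested.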

How the data were processed

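RNA-seq of AN3CA cells was used, 3 shEV and 3 shPAX2 libraries from a stranded total-RNA kit. The deposited values are TPM per gene, made by the authors; the submitters' processing notes name bcl2fastq, STAR, Subread, featureCounts, edgeR and hg19, with versions and roles for these libraries not given in the sources used here (the study's methods describe STAR on hg19 and RSEM for its Ishikawa libraries). Reads in a snoRNA row cannot be told apart from unspliced or exonic host RNA. Whole reads were recovered for all listed genes (tolerance 1e-09) from the length steps of TPM, giving 10731032 to 29406068 reads per library.

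Genes with at least 0.5 TPM in at least 3 libraries were tested two-sided with limma (version 3.58.1, run under R 4.3.3; linear fit, moderation robust and trended), after TPM were put on the log2(TPM + 0.5) scale, with Benjamini-Hochberg adjustment over all 13163 genes; fold changes on this scale understate those of low genes. The scripts were tested on simulated data with known changes, called at an adjusted p under 0.05. Among snoRNAs with at least 20 reads, 45.0% of 20 changed 2-fold and 60.0% of 20 changed 3-fold were recovered. For other genes with that many reads these shares were 87.5% and 94.9%. Unchanged genes made up 8.3% of all calls there. Counting intervals of a ratio between groups are exact 95% binomial on pooled reads and, like the floor of 3 reads, cover counting error only. Ratios within libraries were compared by exact permutation (scipy 1.17.1). Alternatives were other scalings, filters, pseudocounts, voom, a replicate block and leaving out each library.

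Positions of 178 snoRNAs came from GENCODE release 44 lifted to GRCh37, with sequences read by samtools 1.23.1. Hosts were the shortest listed gene on the same strand that holds the snoRNA, or, with no such position, a neighbour in RefSeq on GRCh38.p14. RefSeq entries gave snoRNA lengths, equal to the length in the values for 186 of 219.

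Named were the 10 snoRNAs outside the arrays with the highest mean TPM, the called ones with at least 20 reads and no overlap (up to 8 in each direction), the 3 most read of each array, members of hosts with 3 or more, and those on chromosome 6. Members and lists were chosen with earlier results of these data known. A sequence and a host gene are not reported here.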

Additional observations from a re-analysis of the deposited data

How the results depend on the processing

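SNORD15B, SNORD17, SNORD44, SNORD45B, SNORD58B, SNORD58C, SNORD86, SNORD50B and SNORD52 kept direction and call in all 19 alternatives run on each, and no result past the threshold reversed in the alternatives run. Values that were not called could change sign, as SNORD116-19 (−0.23) did without shPAX2 replicate 1 (0.11), SNORD114-10 (1.13) without shEV replicate 2 (−0.15), and SNORD114-21 (−0.31, then 0.18 without shEV replicate 1) and SNORD113-4 (−0.18, then 0.54 without shPAX2 replicate 1), all on few reads except SNORD116-19. Over single genes and alternatives, 1667 values kept their call, 53 gained one and 39 lost one. The 5 snoRNAs past both thresholds became 10 with no filter, 9 with no trend and no robust moderation, 3 with a pseudocount of 5 TPM, 3 with quantile normalization, 9 with voom and 26 with no fold threshold; leaving out 1 library gave 3 (without shPAX2 replicate 2) to 11 (without shEV replicate 1). The 26 at an adjusted p under 0.05 ranged from 22 to 41 (the highest without shEV replicate 1) on leaving out a library. The 17 with at least 20 reads became 10 with a minimum of 50 reads and ranged from 15 to 27 (without shEV replicate 1, 15 of the 17 among them). Of these the 10 higher became 16 with median-of-ratios scaling (8 to 16 on leaving out a library), and the 7 lower became 3 with voom, 3 at 50 reads and 11 at 5 reads (6 to 11 on leaving out a library). The share of calls that were higher was 58.8%, and 76.2% under median-of-ratios scaling; under voom 9 of 12 were higher. The 3 with at least 20 reads past both thresholds ranged from 2 to 4. The 1 array call became 0 with filters of 10 reads or 5 TPM, 5 with no filter, 2 with a pseudocount of 5 TPM and 2 with voom (1 to 5 on leaving out a library, 5 without shEV replicate 2). With the filters of 10 reads and 5 TPM the called copy was itself not tested. The 26 hosts ranged from 11 (without shPAX2 replicate 2) to 31, with 14 without shEV replicate 2 and 16 without shEV replicate 3. The 15 genes of the particle and processome lists became 30 with median-of-ratios scaling, 9 with no filter and 7 with no trend and no robust moderation, and ranged from 7 (without shPAX2 replicate 2 or 3) to 26 (without shPAX2 replicate 1), with 9 without shEV replicate 1 and 8 without shEV replicate 2 or 3. The median log2 fold change of C/D-box snoRNAs, 0.09, became 0.206 with median-of-ratios scaling and 0.197 with quantile normalization (0.089 to 0.149 on leaving out a library). The ratio of the summed TPM of C/D-box snoRNAs, 0.992, became 0.941 as a share of recovered reads and 1.07 with median-of-ratios scaling (0.964 to 1.01). The causes were not tested. Deviations of samples with the same replicate number correlated at −0.0523, 0.0815 and 0.0014. With 3 libraries in a group this cannot decide whether equal numbers mark a shared culture or batch. With the replicate block the counts were 40 of all snoRNAs, 28 with at least 20 reads (17 higher and 11 lower, including the 17) and 2 in the arrays. Depth limits the 53 snoRNAs at or under 3 reads in every library, for which no difference was detectable.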
